A study of Mus musculus with 4 samples.

Results

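Classical monocytes outside the cell cycle were described in the bone marrow of 5TMM mice, and 303 of the 39743 cells that passed quality control belonged to them. A cell was included when it had at least 1 unique molecular identifier (UMI, a tag that marks a single captured transcript) of Csf1r, at least 1 of Ccr2 and at least 5 of Ly6c2. It further had 0 UMIs of Mki67 and Top2a, at most 1 of H2-Ab1 and at most 1 of Mmp8, Mmp9 and Cxcr2 together. In this model, luciferase-labelled 5TGM1 myeloma cells are injected into the vein of immunocompetent C57BL/KawRij mice and grow in the marrow. All mice of this comparison carried the myeloma, and there was no tumor-free group. Vehicle was given to 2 mice and Purinostat mesylate (PM, an inhibitor of class I and IIb histone deacetylases) at 10 mg/kg to 2 mice, and whole marrow without red cells was profiled 24 h later, with 1 droplet library per mouse. By the study's methods, mice of this model were a few weeks old when the myeloma cells were injected. For single-cell profiling, treatment was given once the model had been established for a few weeks. Treatment began at another time in some other experiments. The labels give neither age nor sex, and samples of the same group are taken to be separate animals.

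Classical monocytes are made in the marrow from dividing granulocyte-monocyte and monocyte progenitors and leave it through the chemokine receptor CCR2. They carry LY6C2 at the surface, depend on the growth factor receptor CSF1R, and can become macrophages, osteoclasts, dendritic-like cells or, after losing LY6C2 and gaining CX3CR1, the non-classical monocytes that patrol vessel walls. Histone deacetylases remove acetyl groups from histones and other proteins, and their inhibition changes transcription of many genes in either direction.

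The 303 cells were 62 and 70 in vehicle 1 and vehicle 2, and 130 and 41 in PM 1 and PM 2. They held 490943, 673142, 891965 and 323645 UMIs in the same order, and PM 2 was therefore the least deeply sampled library. The median cell had 7912, 9729, 6541 and 7594 UMIs, and the median mitochondrial share was 3.28%, 3.06%, 3.45% and 3.45%. No cell barcode of these monocytes was shared between libraries, although 18 to 41 barcodes were shared between pairs of whole libraries. Scored against simulated doublets, 1, 4, 6 and 1 of these cells were called doublets, and they were kept.

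Most classical monocyte genes that the selection did not use were higher in these cells than in the other cells of the same library. Of 12 such genes in a marker list, all but Chil3 and Irf8 were higher in 4 of 4 libraries. Chil3, a chitinase-like protein that neutrophil precursors also make, was at 4359, 2069, 3725 and 2348 CPM (counts scaled to a common library total) against 4126, 2585, 3489 and 3565 CPM in the other cells, and Irf8 at 356, 401, 258 and 229 CPM against 175, 229, 265 and 229 CPM. Lyz2, lysozyme, reached 10820, 14263, 19284 and 16120 CPM in vehicle 1, vehicle 2, PM 1 and PM 2, against 3854 to 5065 CPM in the other cells of the same libraries. Fn1, fibronectin, reached 2554, 3066, 3970 and 4267 CPM against 263 to 418 CPM in the other cells. F13a1, the clotting factor subunit typical of this cell, was at 1432, 1542, 1900 and 2382 CPM against 259 to 349 CPM. Vcan, versican, was at 542, 507, 474 and 426 CPM against 19.2 to 84.7 CPM. In the normalized comparison below, Fn1 and F13a1 were higher in both PM libraries than in both vehicle libraries but were not called (log2 fold change 0.57 ± 0.19 SE with an adjusted p of 0.179 and 0.54 ± 0.19 with 0.219, edgeR), and neither was Vcan (−0.19 ± 0.19, adjusted p = 0.852, edgeR).

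The genes that chose the cells are given as levels without a test. Ly6c2 stood at 1911 and 1901 CPM in the vehicle libraries and at 4485 and 5122 CPM in the PM libraries after normalization, and the groups did not overlap. Per cell, the median was 11, 14, 29 and 44 Ly6c2 UMIs in vehicle 1, vehicle 2, PM 1 and PM 2, well above the 5 required. Ccr2 was at 3389, 3233, 2661 and 3033 CPM, lower in each PM library than in each vehicle library, and Csf1r was at 484, 381, 454 and 358 CPM, with overlapping groups. Counts for Ly6c2 can include reads of its near-identical neighbor Ly6c1, to which 0 UMIs were assigned in these cells. Ly6c2 lies at chr15:75108158-75111970 on the minus strand in the GENCODE M21 annotation of GRCm38.

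**Figure D1:**
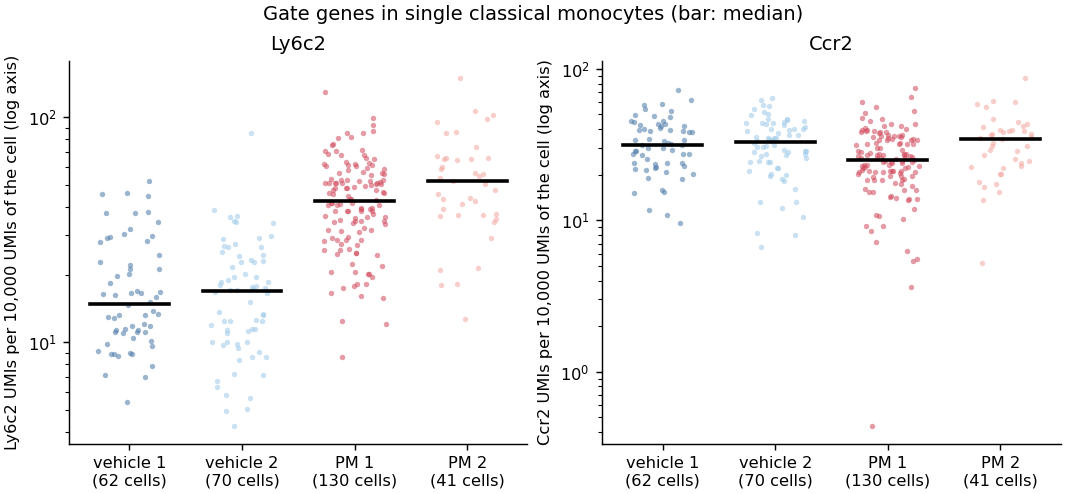
Ly6c2 (left) and Ccr2 (right) UMIs scaled to the cell's UMI total, on log axes, in each of the classical monocytes of the 4 libraries, with the median as a bar. The Ly6c2 cloud lies higher in PM 1 and PM 2 than in both vehicle libraries, while the Ccr2 clouds overlap. Both genes were used to choose the cells.

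A population chosen without Ly6c2 gave a level of this gene that the selection had not fixed. In MHC class II monocytes (Csf1r, at least 5 H2-Ab1 UMIs and at least 2 UMIs of F13a1, Fn1, Vcan and Ccr2), Ly6c2 was at 673 and 433 CPM in the vehicle libraries and at 2008 and 1808 CPM in the PM libraries. On the log2 scale this was a rise of 1.84 ± 0.24 (SE; adjusted p = 0.00637, edgeR), in a comparison where 0.0539% of 5568 genes were called. The same was done for Csf1r in classical monocytes by leaving out its own criterion. Csf1r was then at 327, 295, 277 and 177 unscaled CPM, on the log2 scale a difference of −0.44 ± 0.21 that was not called (adjusted p = 0.411, edgeR).

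The share of classical monocytes among the cells that passed quality control did not separate the groups. It was 0.669% in vehicle 1 (95% exact binomial interval 0.514 to 0.857, counting error only), 0.894% in vehicle 2 (0.698 to 1.13), 0.971% in PM 1 (0.812 to 1.15) and 0.442% in PM 2 (0.318 to 0.600). The means were 0.782% ± 0.159 with vehicle and 0.707% ± 0.374 with PM (SD, n = 2 each), with an exact two-sided permutation p of 1 in a design whose smallest possible p is 0.333. When every cell was first thinned to 2000 UMIs and then selected, the shares became 0.684%, 0.640%, 1.42% and 0.757%, higher in 4 of 4 vehicle-PM pairs but again with an exact permutation p no lower than 0.333. The UMI thresholds stayed the same, with at least 5 Ly6c2 UMIs. Classical monocytes chosen on the deposited counts held a mean of 3.97, 4.01, 9.06 and 10.9 Ly6c2 UMIs after thinning, in the same library order. The upper limits on other genes are easier to meet after thinning, so this selection holds partly different cells. The part of the Ly6c2 level in these shares was not tested. Of the cells that met every other criterion, the Csf1r criterion removed 34.7%, 31.4%, 44.9% and 64.3% in vehicle 1, vehicle 2, PM 1 and PM 2, and the removed cells were shallower (median 4100 to 5519 UMIs). The Ly6c2 criterion removed 37.4% and 37.5% of such cells with vehicle, and 6.47% and 29.3% with PM. The criterion on Mmp8, Mmp9 and Cxcr2, genes of neutrophils, removed 79.5%, 64.6%, 64.1% and 66.9%. Without that criterion the share was 3.27%, 2.53%, 2.70% and 1.34%. At its edge, 31, 32, 79 and 18 of the included cells had 1 UMI of these genes, and 31, 32, 61 and 28 otherwise matching cells had 2 UMIs and were left out.

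**Figure D2:**
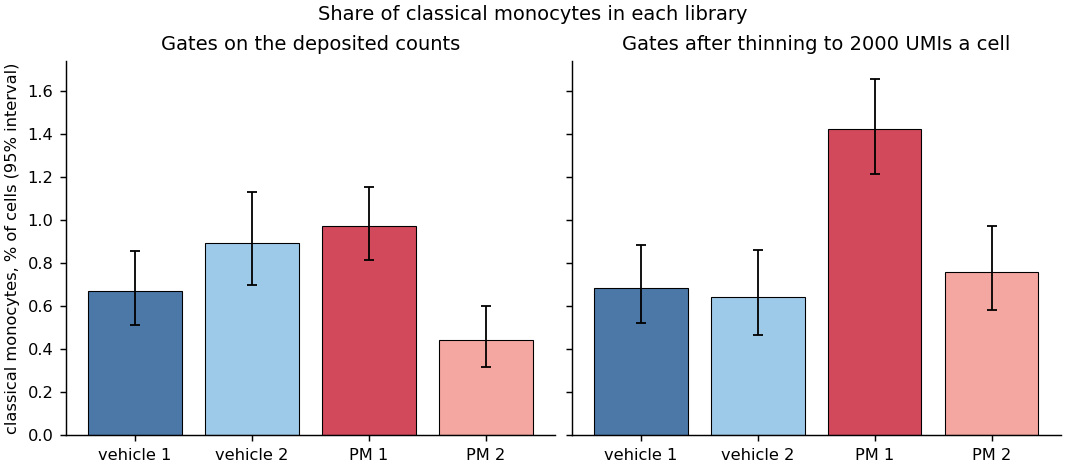
Classical monocytes as a percentage of the cells of each library, with 95% exact binomial intervals as bars, selected on the deposited counts (left) and after thinning every cell to 2000 UMIs (right, among cells with at least that many). On the left PM 1 is the highest and PM 2 the lowest library, and on the right both PM libraries lie above both vehicle libraries. The same UMI thresholds were used in both panels.

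To ask which genes differed after 24 h of PM, counts were summed over the classical monocytes of each library. Of 6861 genes tested, 81 were called in edgeR (1.18%), at a Benjamini-Hochberg adjusted p under 0.05 and an absolute log2 fold change over 0.5. There were 49 higher with PM (0.714% of the genes tested) and 32 lower (0.466%), and for all 81 both PM libraries lay on the same side of both vehicle libraries. That separation alone was common, since 18.2% of all tested genes were higher and 21.3% lower in 4 of 4 vehicle-PM pairs. The median log2 fold change over all tested genes was −0.0041. With 2 mice per group the calls depended on the method: DESeq2 called 8 higher and 6 lower, of which 6 and 5 were also called in edgeR. The edgeR calls, higher and lower, were 46 and 25 without vehicle 1, 66 and 82 without vehicle 2, 33 and 30 without PM 1 and 83 and 80 without PM 2. With the criterion on Mmp8, Mmp9 and Cxcr2 dropped they were 159 and 45, of which 39 and 17 were among the 81, and with the Csf1r criterion dropped 75 and 54, of which 23 and 22 were.

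Among called genes with a mean level of 50 CPM or more, the largest fall was that of Il1b, while the rarer Rgs1, Ebf1 and Dusp5 had larger fitted falls. Il1b, the cytokine interleukin 1 beta, stood at 65.1 and 132 CPM in the vehicle libraries and at 3.45 and 14.9 CPM in the PM libraries. The groups did not overlap, and the log2 fold change was −3.83 ± 0.51 (SE; adjusted p = 4.38e-04, edgeR). The vehicle 2 level came largely from 1 cell, which held 74 of the 88 Il1b UMIs of that library. With the cell richest in Il1b left out of each library, a setting chosen after seeing the data, the other cells held 25, 14, 2 and 2 UMIs in vehicle 1, vehicle 2, PM 1 and PM 2 (50.8, 21.02, 2.30 and 5.97 CPM), and the log2 fold change was −3.27 (adjusted p = 0.0105, edgeR). Few cells had a UMI of Il1b at all, 11 of 62, 8 of 70, 3 of 130 and 3 of 41. Cx3cr1, the fractalkine receptor that rises as monocytes mature, fell from 224 and 276 CPM to 48.3 and 50.7 CPM. On the log2 scale it fell by 2.32 ± 0.24 (adjusted p = 1.29e-07, edgeR), and the share of cells with a UMI was 54.8%, 78.6%, 18.5% and 24.4%. When cells were thinned to 2000 UMIs each, these shares were 30.6%, 37.1%, 10.0% and 15.0%, which keeps the order of the groups. Cx3cr1 lies at chr9:119901616-120069879, minus strand, and Il1b at chr2:129364570-129371139, minus strand (GENCODE M21, GRCm38). Neither gene was called when the criterion on Mmp8, Mmp9 and Cxcr2 was dropped, and Il1b was not called when the Csf1r criterion was dropped, when Ly6c2 was required at only 3 UMIs or when cells were selected after thinning.

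Klf9, a transcription factor gene that glucocorticoids and the clock control, fell from 134 and 90.1 CPM to 21.9 and 26.9 CPM. Its log2 fold change was −2.21 ± 0.32 and it was called under all 16 other settings tried (adjusted p = 4.39e-05, edgeR). Per1, a core clock repressor that glucocorticoids also induce, was at 102, 61.6, 28.8 and 20.9 CPM in vehicle 1, vehicle 2, PM 1 and PM 2 (log2 fold change −1.58 ± 0.34, adjusted p = 0.00610, edgeR). In both genes the PM libraries lay below both vehicle libraries. Further falls by the same rule were in Irf2bpl, Eps8 (an actin regulator) and Adam9 (a membrane metalloprotease), with log2 fold changes of −1.74 ± 0.35, −1.37 ± 0.28 and −1.32 ± 0.32 and edgeR adjusted p-values of 0.00307, 0.00334 and 0.0255. The calls of Per1, Eps8 and Adam9 were lost without vehicle 1, and those of Irf2bpl and Adam9 without PM 1.

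Among called genes of the same abundance, the 8 largest rises were those of H2-Q7, Cd24a, Ear2, Cd74, Rtp4, Irf7, Trim30d and Hist1h2ac. Cd74, the invariant chain that escorts MHC class II, rose from 183 and 120 CPM to 528 and 540 CPM. The log2 fold change was 1.86 ± 0.21 (adjusted p = 3.93e-07, edgeR). Of the other MHC class II list members, H2-Ab1 was limited by the selection. None of the 5 tested genes was called, beside 1.18% of all tested genes. Cd24a, a small glycosylated surface protein of immature and activated leukocytes, rose from 56.9 and 49.5 CPM to 178 and 248 CPM (2.0004 ± 0.25 on the log2 scale, adjusted p = 3.76e-06, edgeR). Ear2, an eosinophil-type ribonuclease that monocytes also make, rose from 87.4 and 63.1 CPM to 247 and 296 CPM (1.88 ± 0.23, adjusted p = 2.36e-06, edgeR). Cd24a and Ear2 were called under all 16 other settings, and Cd74 was not called when Ly6c2 was required at 10 UMIs or when the Csf1r criterion was dropped. H2-Q7, a gene of the non-classical MHC class I cluster, was at 34.6, 7.51, 81.7 and 125 CPM (2.36 ± 0.49, adjusted p = 0.0456, edgeR), and its near copy H2-Q6 at 10.2, 6.01, 34.5 and 47.8 CPM (2.32 ± 0.50, adjusted p = 0.00742, edgeR). Reads of the pair can be assigned to either copy, as can those of the histone gene Hist1h2ac (26.4, 31.5, 94.3 and 50.7 CPM), the eighth of the largest rises. H2-Q6 was not called without vehicle 2 or without PM 1, and Hist1h2ac not without vehicle 1 or PM 1. Without called doublets neither H2-Q7 nor H2-Q6 was called. H2-Q7 was also not called in DESeq2, with Ly6c2 required at 3 UMIs or without the criterion on Mmp8, Mmp9 and Cxcr2. H2-Q7 and H2-Q6 were the 2 calls among 22 tested genes of MHC class I and peptide loading, beside 0.714% of all tested genes called higher. The list's median log2 fold change was 0.24. In vehicle 2, 1 cell held 29 of the 80 Cd74 UMIs.

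**Figure D3:**
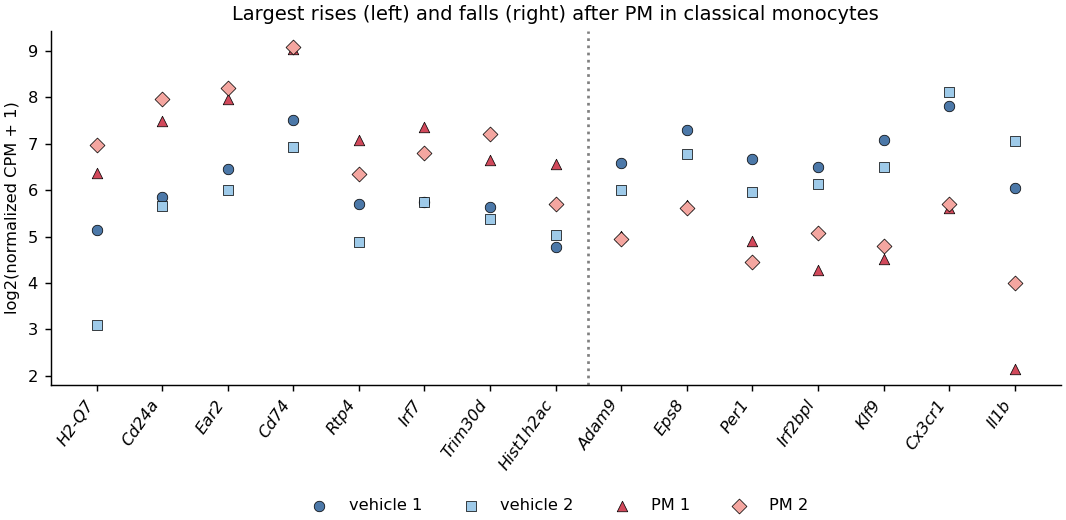
The 8 largest rises (left of the dotted line) and 7 of the 8 largest falls (right) among calls whose 4-library mean reached 50 CPM, as log2(normalized CPM + 1) in each library. In each gene both PM libraries lie on the same side of both vehicle libraries, and the PM symbols of Cd74, Cx3cr1, Eps8 and Adam9 lie nearly on top of each other.

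Lower-abundance genes showed larger folds. Axl, a receptor tyrosine kinase of phagocytes, was at 4.07 and 3.003 CPM in the vehicle libraries (2 UMIs in each) and at 57.5 and 95.5 CPM in the PM libraries (50 and 32 UMIs). Its log2 fold change was 4.32 ± 0.53 (adjusted p = 2.41e-06, edgeR), and it was called under all 16 other settings. Sparc, a matrix-associated glycoprotein, had 1 UMI in each vehicle library and 45 and 17 UMIs in the PM libraries. The pooled ratio of PM to vehicle, per UMI sequenced, was 29.7 (95% interval 7.88 to 251, counting error only), and edgeR called it (adjusted p = 5.81e-06) where DESeq2 did not. UMIs of Sparc were in 19.2% and 26.8% of the PM cells and in 1.61% and 1.43% of the vehicle cells, and after thinning to 2000 UMIs in 10.8% and 17.5% of PM cells and in 0 vehicle cells. No PM cell held more than 7 Sparc UMIs. Qpct, glutaminyl cyclase, which modifies the ends of chemokines, rose from 6.10 and 10.5 CPM to 42.6 and 68.7 CPM (2.59 ± 0.47, adjusted p = 0.00114, edgeR). Axl lies at chr7:25757273-25788705 and Sparc at chr11:55394500-55423183, both on the minus strand (GENCODE M21, GRCm38). Of 10 marker genes of bone marrow macrophages, which include Axl, the summed level was 139, 134, 205 and 250 unscaled CPM, Adgre1 was the most abundant in each library, and Cd5l and Spic were at 0 UMIs in all 4.

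Type I interferon induces genes that restrict viruses. Of 56 tested genes in the type I interferon list, 6 were called higher (Rsad2, Rtp4, Irf7, Trim30d, Oasl2 and Mndal) and 0 lower, beside 0.714% of all tested genes called higher. The median log2 fold change of the list was 0.49, beside −0.0041 over all genes, and 46 of the 56 lay above 0. Of the list, 28 genes were higher in 4 of 4 vehicle-PM pairs and 2 were lower in all of them, beside 18.2% and 21.3% of all tested genes. Irf7, the factor that amplifies interferon production, was at 52.9, 52.6, 163 and 110 CPM (1.45 ± 0.27, adjusted p = 0.00116, edgeR). Rtp4, an interferon-induced chaperone, was at 50.8, 28.5, 135 and 80.6 CPM (1.57 ± 0.31, adjusted p = 0.00311, edgeR). Rsad2, viperin, was at 10.2, 22.5, 78.2 and 41.8 CPM (1.93 ± 0.40, adjusted p = 0.00505, edgeR). In these genes PM 1 was above PM 2 and the vehicle libraries were lowest. Trim30d, a tripartite motif gene with close paralogs, was at 48.8, 40.5, 100.1 and 146 CPM (1.45 ± 0.29, adjusted p = 0.00290, edgeR). Well-known members that were not called were Isg15 at 24.4, 22.5, 63.3 and 41.8 CPM, Ifitm3 at 2161, 2416, 2657 and 2003 CPM and Bst2 at 209, 176, 225 and 191 CPM. Rsad2, Rtp4, Irf7, Oasl2 and Mndal lost their call without PM 1, and Mndal also without vehicle 2. DESeq2 called none of the 6, and Irf7 and Trim30d were not called when cells were selected after thinning.

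The window from 250 bases before to 50 bases after the transcription start was searched, on both strands, for GAAA, any 2 bases and GAAA again, the core of the interferon-stimulated response element. RefSeq windows (GRCm38.p6) were matched by symbol for 40 of the 49 genes called higher, and 6 of the 40 held the letters (15.0%), as did 2 of 22 matched genes called lower and 3.99% of all 27025 genes in the table. Of the 44 matched genes of the interferon list, 22 held them. The 250 bases before the start are shown for 3 called interferon genes with a match, with the matching bases in capitals, to show where the letters stand. They run 5′ to 3′ on the gene's strand, from chr12:26456453-26456702 for Rsad2, chr7:104507850-104508099 for Trim30d and chr1:173880188-173880437 for Mndal, all on the minus strand. In Trim30d the match began 41 bases and in Mndal 36 bases before the start, and in Rsad2 it began 120 bases before it. The matches in Rsad2 and Trim30d read on the opposite strand. Mndal has another start with its own window, not shown, where a match on the opposite strand began 54 bases before that start.
Rsad2: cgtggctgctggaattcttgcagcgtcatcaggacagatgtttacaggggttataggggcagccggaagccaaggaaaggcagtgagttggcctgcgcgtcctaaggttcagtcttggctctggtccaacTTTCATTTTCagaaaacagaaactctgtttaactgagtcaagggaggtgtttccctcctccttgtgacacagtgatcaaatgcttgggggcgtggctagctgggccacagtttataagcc
Trim30d: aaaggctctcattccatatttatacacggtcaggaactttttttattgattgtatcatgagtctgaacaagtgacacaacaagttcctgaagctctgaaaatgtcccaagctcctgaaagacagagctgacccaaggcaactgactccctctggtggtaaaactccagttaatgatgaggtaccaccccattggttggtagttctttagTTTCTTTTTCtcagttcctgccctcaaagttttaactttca
Mndal: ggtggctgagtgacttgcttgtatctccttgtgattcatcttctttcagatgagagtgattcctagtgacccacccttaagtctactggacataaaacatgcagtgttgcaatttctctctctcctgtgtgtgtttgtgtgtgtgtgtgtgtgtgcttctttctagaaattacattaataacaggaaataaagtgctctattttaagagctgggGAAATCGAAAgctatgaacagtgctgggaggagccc

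Neither the interferon gamma targets nor the chemokines held a call. With 1.18% of all tested genes called, lists this short can hold 0 calls at that share. Of 14 tested guanylate-binding, immunity-related and other interferon gamma targets, 0 were called, and their median log2 fold change was −0.46. In 4 of 4 pairs, 0 of them were higher and 4 were lower, beside 18.2% and 21.3% of all tested genes. Vehicle 1 held much of the signal of these targets. Gbp2 was at 226 CPM there and at 33.0, 61.0 and 17.9 CPM in vehicle 2, PM 1 and PM 2. Cxcl10, an interferon-induced chemokine for T cells, was at 28.5, 12.01, 35.7 and 5.97 CPM, and the groups overlapped, with 21 of the 31 UMIs of PM 1 in 1 cell (log2 fold change 0.45 ± 0.55, adjusted p = 0.898, edgeR). Of the 7 tested chemokine ligands 0 were called, with a median of −0.67. Cxcl2, a neutrophil attractant, was at 260, 64.6, 3.45 and 5.97 CPM, with vehicle 1 well above vehicle 2 (adjusted p = 0.546, edgeR). Ccl3 was at 75.2, 117, 10.4 and 86.6 CPM and Ccl4 at 67.1, 64.6, 2.30 and 44.8 CPM, low in PM 1 and close to the vehicle level in PM 2. Ccl6 (960, 1027, 861 and 681 CPM) and Ccl9 (899, 785, 648 and 633 CPM) were the most abundant ligands, were lower in both PM libraries, and were not called. The study names further cytokine genes across several cell types, not in monocytes alone, and osteoclast genes in monocytes. Of these, Ccl7, Il13, Il19, Dcstamp and Ctsk had 0 UMIs in the classical monocytes of all 4 libraries. This allows at most 6.11, 4.46, 3.36 and 9.27 CPM per library at 3 counts, and says nothing of other cells.

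NF-kB feedback and immediate early genes had medians below 0 with few calls. Of 19 tested NF-kB genes 0 were called, beside 0.466% of all tested genes called lower. Among them 17 had a log2 fold change below 0, and the median was −0.66. In 4 of 4 pairs 10 were lower, beside 21.3% of all tested genes. Tnfaip3, which encodes the A20 brake on this pathway, was at 108, 39.0, 16.1 and 23.9 CPM, and Nfkbia, the inhibitor that NF-kB induces, at 622, 405, 165 and 298 CPM. Both PM libraries were below both vehicle libraries in these genes, and the adjusted p-values were 0.0840 and 0.175 (edgeR). Of 26 immediate early genes 1 was called, beside 0.466% of all tested genes called lower. This was Dusp2, a phosphatase of nuclear MAP kinases, at 40.7, 63.1, 3.45 and 14.9 CPM (−2.89 ± 0.52, adjusted p = 0.00114, edgeR). It was called under only 8 of 16 other settings, and its call was lost in DESeq2, without vehicle 2 and without PM 1, among others. Single cells held 8 of 20 and 15 of 42 vehicle UMIs of Dusp2. The list median was −0.46, and PM 1 stood apart. Its summed level was 15274, 13431, 8205 and 12957 CPM, so that PM 2 was close to the vehicle libraries. Fos was at 1687, 1401, 651 and 1251 CPM and Junb at 1425, 1216, 584 and 1167 CPM, with adjusted p-values of 0.388 and 0.576 in edgeR. Immediate early genes respond to tissue dissociation, and their part in the other falls was not tested. Of 12 glucocorticoid-responsive genes 2 were called lower, Klf9 and Per1, beside 0.466% of all tested genes, and 9 were lower in 4 of 4 pairs, beside 21.3%, with a median of −0.96. Tsc22d3, another gene of this class, was at 411, 311, 286 and 263 CPM and was not called, and Fkbp5 at 42.7, 33.0, 31.1 and 23.9 CPM likewise.

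**Figure D4:**
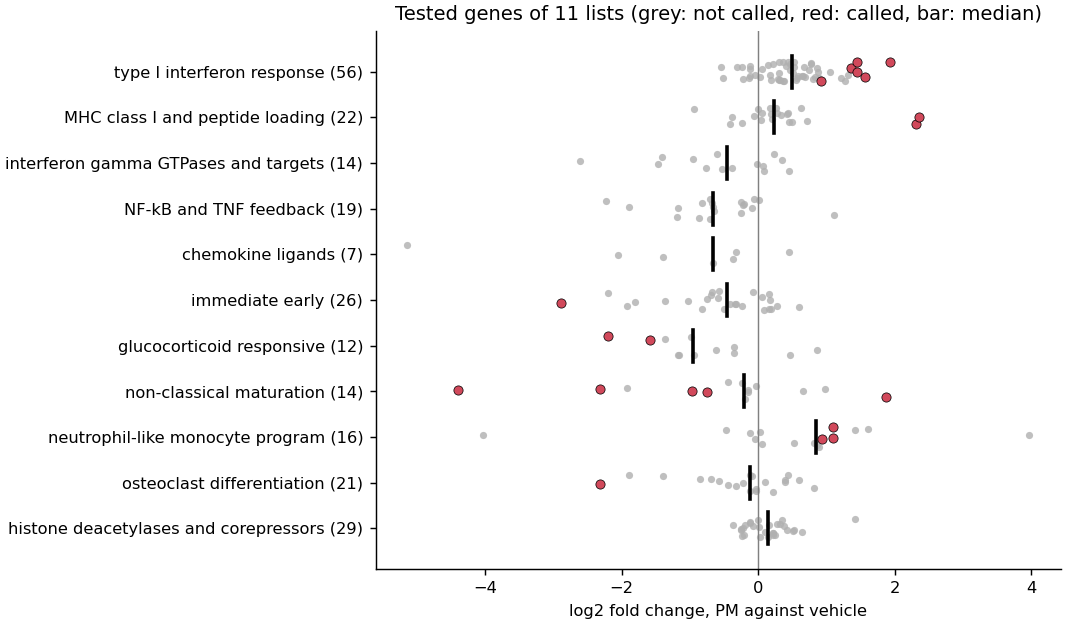
Log2 fold change with PM for each tested gene of 11 gene lists (number of tested genes in brackets), with called genes in red, others in grey and the list median as a bar. The type I interferon list has its median at 0.49 and 6 called genes, all to the right, while the NF-kB, chemokine, immediate early and glucocorticoid lists have medians between −0.46 and −0.96 with 0 to 2 called genes.

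Among the genes of monocyte fate, those of non-classical maturation split. Of 14 tested, 4 were called lower (Cx3cr1, Dusp5, Gngt2 and Clec4a3) and 1 higher (Ear2), beside 0.466% and 0.714% of all tested genes, and the median was −0.21. Gngt2, a G protein gamma subunit typical of non-classical monocytes, was at 323, 269, 151 and 143 CPM (−0.97 ± 0.20, adjusted p = 0.00485, edgeR). Dusp5, a phosphatase of ERK, had 9, 17, 0 and 1 UMIs, a sparse count that was not called under 11 of 16 other settings. The C-type lectin receptors Clec4a2 and Clec4a3 are paralogs with different directions. Clec4a2 rose from 110 and 210 CPM to 343 and 379 CPM (1.17 ± 0.23, adjusted p = 0.00485, edgeR), and Clec4a3 fell from 598 and 420 CPM to 312 and 275 CPM (−0.75 ± 0.20, adjusted p = 0.0480, edgeR). Gngt2, Clec4a2 and Clec4a3 lost their calls without vehicle 1.

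Of 39 transcription factors of myeloid cells, 3 were called, beside 1.18% of all tested genes, and the median was −0.08. Id2, an inhibitor of basic helix-loop-helix factors, rose from 246 and 267 CPM to 548 and 725 CPM (1.33 ± 0.20, adjusted p = 5.88e-05, edgeR) and was called under all 16 other settings. Runx2, a Runt factor best known from bone, fell from 59.0 and 99.1 CPM to 16.1 and 8.95 CPM (−2.49 ± 0.38, adjusted p = 1.05e-04, edgeR). It was not called in DESeq2, after thinning or without the criterion on Mmp8, Mmp9 and Cxcr2, and in vehicle 1 a single cell held 13 of its 29 UMIs. Hif1a, the oxygen-regulated factor, fell from 262 and 162 CPM to 96.6 and 101 CPM (−1.06 ± 0.24, adjusted p = 0.0138, edgeR), and this call was lost without vehicle 1 and without PM 1. Irf8, needed for monocyte development, was at 356, 405, 265 and 221 CPM and Klf4 at 325, 332, 321 and 412 CPM, and neither was called. Of 21 tested osteoclast differentiation genes 1 was called lower, Cx3cr1, beside 0.466% of all tested genes, with a list median of −0.11. Nfatc1, the master factor of osteoclasts, was at 79.3, 76.6, 73.6 and 65.7 CPM, Notch2 at 161, 158, 144 and 149 CPM, and Asxl2 at 112, 91.6, 75.9 and 98.5 CPM. Nfatc1 and Notch2 were slightly lower in both PM libraries than in both vehicle libraries and the Asxl2 groups overlapped, and none of the 3 was called (log2 fold changes of −0.11, −0.10 and −0.23 with adjusted p-values of 0.952, 0.951 and 0.886, edgeR). Acp5 had 9, 4, 17 and 2 UMIs.

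Most apoptosis, histone and deacetylase genes were not called, which was also true of all tested genes, of which 1.18% were called. Pmaip1, which encodes the BH3-only protein NOXA, was at 95.6, 67.6, 9.20 and 11.9 CPM (−2.96 ± 0.40, adjusted p = 1.43e-05, edgeR). It was the only call among 22 BCL2 family and apoptosis genes, whose median was −0.11, beside 0.466% of all tested genes called lower. Among 17 p53 targets and cell cycle inhibitors it was also the only call. It was called under 15 of 16 other settings, DESeq2 included. Hist1h1c, a linker histone, was at 218, 318, 107 and 152 CPM (−1.09 ± 0.23, adjusted p = 0.00562, edgeR), with the call lost without vehicle 2 and without PM 1. Of 29 deacetylase and corepressor genes 0 were called, beside 1.18% of all tested genes, with a median of 0.15. Among the enzymes that PM targets, Hdac1 was at 67.1, 73.6, 97.8 and 68.7 CPM, Hdac2 at 36.6, 48.0, 32.2 and 32.8 CPM and Hdac3 at 24.4, 28.5, 24.2 and 35.8 CPM, with overlapping groups for Hdac1 and Hdac3. Hdac6, Hdac8 and Hdac10 had at most 7 UMIs in any library and were not tested. Oxidative phosphorylation (74 genes tested, median −0.05), the proteasome (31 genes, 0.01), glycolysis (19 genes, 0.06) and the unfolded protein response (26 genes, −0.22) held 0 calls each, beside 1.18% of all tested genes.

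Some genes of the neutrophil-like program were called higher with PM. Of 16 tested genes of the neutrophil-like monocyte program 3 were called higher, beside 0.714% of all tested genes, with a list median of 0.84. Lcn2, a siderophore-binding protein, was at 148, 104, 298 and 215 CPM (1.10 ± 0.22, adjusted p = 0.00334, edgeR), Cd177, a neutrophil surface protein, at 116, 149, 312 and 239 CPM (1.10 ± 0.21, adjusted p = 0.00168, edgeR), and Camp, the cathelicidin precursor, at 81.3, 91.6, 189 and 125 CPM (0.93 ± 0.24, adjusted p = 0.0412, edgeR). The summed level of 12 neutrophil markers was 1939, 1321, 4987 and 2568 unscaled CPM, with S100a8 or S100a9 the most abundant, and Ly6g was at 0 UMIs in vehicle 2 and above 0 elsewhere. The 7 markers of granulocyte-monocyte progenitors summed to 204, 138, 1067 and 340 unscaled CPM, led by Prtn3, and their high value was in PM 1. There, single cells held 251 of 294 Mpo UMIs, 104 of 145 Elane UMIs and 181 of 424 Prtn3 UMIs. Their part in these calls was not tested. In cells with at most 2 UMIs of Ltf, Camp and Ngp (42, 44, 56 and 21 cells), 21 genes were called higher and 11 lower in the classical monocytes, and Lcn2, Cd177 and Camp were not among them (log2 fold changes of 0.84, 1.00 and 0.30, adjusted p-values of 0.448, 0.0656 and 0.899, edgeR). Camp itself set this limit, which left 56 of the 130 cells of PM 1. When the cells were selected after thinning, Lcn2 (log2 fold change −0.13) and Camp (−0.51) lost both their call and their direction. Without PM 1 the calls of Lcn2, Cd177 and Camp were lost, Lcn2 was also not called without vehicle 2, and Camp not without vehicle 1.

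Markers of further cell types were low. The summed level of 9 B cell markers was 299, 327, 303 and 244 unscaled CPM, most of it Ighm, with Ms4a1 and Ighd at 0 in all libraries. Plasma cell markers summed to 658, 481, 609 and 488 CPM, led by Xbp1, which monocytes also express, and erythroid markers to 48.9, 71.3, 147 and 198 CPM, led by Hba-a2, a globin gene that was itself called higher and of which 1 cell of PM 2 held 26 of 34 UMIs. T and NK cell markers reached 78.5 CPM in PM 1 and 7.43 to 15.4 CPM in the other libraries. Stromal markers were at or near 0 in all 4.

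To see whether these changes were shared with related cells of the same mice, the PM effect was compared with that in 3 other selections, fitting both selections in 1 model with a term per mouse and testing the interaction. Cycling monocytes met the same criteria except for at least 2 UMIs of Mki67 and Top2a (893 cells, 176 to 337 per library). MHC class II monocytes were those described above for Ly6c2, without cycling, neutrophil, B cell or dendritic transcripts of the criteria (200 cells, 27 to 64 per library). Non-classical monocytes had Csf1r, at least 2 UMIs of Ace, Treml4 and Cd300e and at most 4 of Ly6c2, outside the cycle (139 cells, with 63, 48, 14 and 14 per library), and rest on few PM cells. Ly6c2 was higher with PM in classical and MHC class II monocytes, so this limit on Ly6c2 may admit different cells with PM than with vehicle. Its part in the differences below was not tested. Cycling monocytes carried Elane, a neutrophil elastase gene of progenitors, at 1316 to 2815 CPM, so they include cells close to progenitors. The PM effect differed for 36 of 10502 genes against cycling monocytes (0.343%), for 21 of 6713 against MHC class II monocytes (0.313%) and for 17 of 6117 against non-classical monocytes (0.278%). The differences called higher, meaning a larger rise or smaller fall in classical monocytes, were 0.19%, 0.104% and 0.147% of the genes tested, and those called lower 0.152%, 0.209% and 0.131%. Within the other selections, PM was tested against vehicle in the same way: 0.335% of 10756 genes were called in cycling monocytes (0.26% higher and 0.0744% lower), 0.0539% of 5568 in MHC class II monocytes (0.0359% and 0.018%) and 0.376% of 3462 in non-classical monocytes (0.318% and 0.0578%). These counts rest on few mice. Leaving out any 1 mouse gave 10 to 17 higher and 8 to 24 lower genes against cycling, 2 to 5 and 6 to 13 against MHC class II, and 2 to 23 and 2 to 8 against non-classical monocytes.

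The fall of Cx3cr1 was larger in classical monocytes than in each of the other selections. Cx3cr1 was at 30.7, 33.1, 27.7 and 30.8 CPM in cycling, at 357, 444, 132 and 335 CPM in MHC class II and at 510, 694, 338 and 605 CPM in non-classical monocytes, in the order vehicle 1, vehicle 2, PM 1 and PM 2. The differences in log2 fold change were −2.16 ± 0.28, −1.30 ± 0.31 and −2.04 ± 0.37 (interaction in edgeR, adjusted p = 6.99e-11, 0.0122 and 8.47e-04). For Il1b, which was at 2.97 to 4.79 CPM in cycling monocytes, the difference was −3.58 ± 0.65 (adjusted p = 4.28e-05, edgeR), but it was no longer called once the cell richest in Il1b was left out of each library of classical monocytes (−3.09, adjusted p = 0.112, edgeR). Against MHC class II monocytes, where Il1b was at 296, 110, 88.8 and 183 CPM, the difference was −3.10 ± 0.51, and −2.56 without those cells (adjusted p = 0.0379, edgeR). Against non-classical monocytes it was −2.63 ± 0.90 and was not called (adjusted p = 0.448, edgeR). Runx2 was lower with PM in classical monocytes and at 45.7, 33.7, 88.8 and 48.7 CPM in MHC class II monocytes (difference −3.39 ± 0.54), and it differed from cycling monocytes by −1.72 ± 0.42, where it was at 49.3, 45.1, 29.4 and 23.5 CPM, also lower in both PM libraries (log2 fold change −0.82 ± 0.16, adjusted p = 0.0686, edgeR).

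Id2 rose more in classical than in cycling monocytes (difference 1.18 ± 0.18), where it stayed between 69.9 and 84.4 CPM, and more than in non-classical monocytes (2.10 ± 0.37), where it was at 601, 284, 139 and 312 CPM. Irf8, not called in classical monocytes alone, differed from cycling monocytes by −0.83 ± 0.16 (adjusted p = 2.83e-04, edgeR). In cycling monocytes Irf8 was at 565, 701, 779 and 697 CPM. Cd24a rose more than in cycling monocytes (difference 1.27 ± 0.24), and Cd74 rose more than in MHC class II (1.36 ± 0.15) and non-classical monocytes (0.99 ± 0.23), where its level with vehicle was already between 3187 and 10888 CPM. MHC class II monocytes were themselves chosen for H2-Ab1, which is expressed together with Cd74. In cycling monocytes Cd74 rose from 10.1 and 8.10 CPM to 36.7 and 50.4 CPM (2.24 ± 0.21, adjusted p = 0.00244, edgeR). For Klf9, Axl, Rsad2, Ear2, Per1 and Irf7 no difference between selections was called. Klf9 fell in MHC class II monocytes from 135 and 75.9 CPM to 8.08 and 6.09 CPM (−3.73 ± 0.57, adjusted p = 0.0118, edgeR). Axl was higher with PM in cycling (2.39, 1.84, 14.9 and 12.9 CPM) and in non-classical monocytes (53.7, 27.6, 298 and 220 CPM), and both were called (adjusted p = 0.00438 and 0.0133, edgeR). Rsad2 rose in MHC class II monocytes from 17.4 and 22.5 CPM to 127 and 110 CPM (2.64 ± 0.39, adjusted p = 0.0118, edgeR). Ear2 was called higher in cycling and non-classical monocytes too, and Per1 lower in cycling monocytes. Irf7 was at 82.7, 64.6, 267 and 152 CPM in MHC class II monocytes and at 73.8, 67.1, 139 and 147 CPM in non-classical monocytes without being called there, and its interaction with each selection was at most 0.22 on the log2 scale in size, with standard errors of 0.37 to 0.54.

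**Figure D5:**
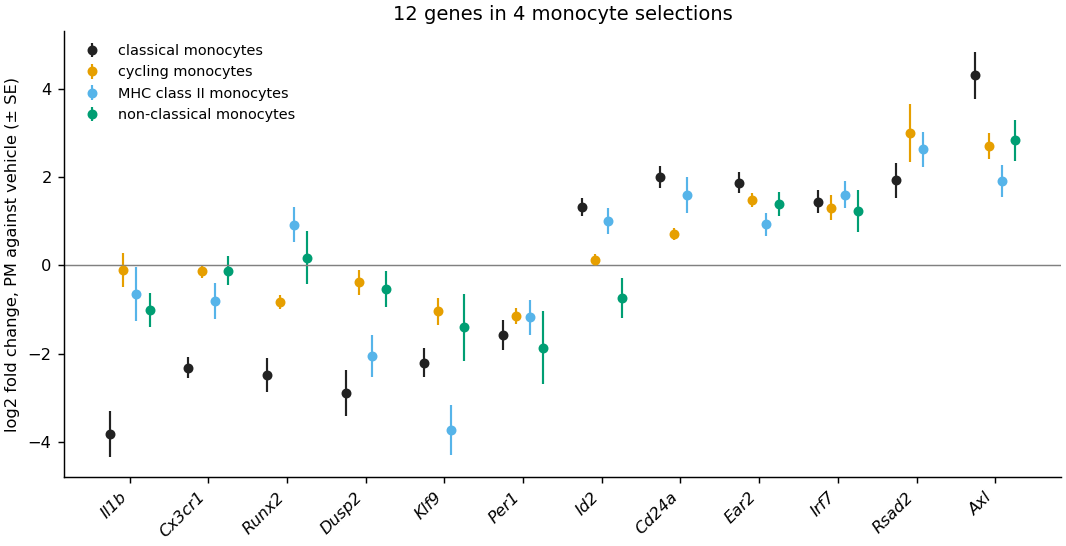
Log2 fold change with PM, with its standard error as a bar, for 12 genes in classical, cycling, MHC class II and non-classical monocytes of the same 4 mice. Il1b, Cx3cr1 and Runx2 lie lowest in classical monocytes, whereas Per1, Ear2 and Irf7 keep 1 sign in the 4 selections, and a missing point was not tested.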

How the data were processed

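The deposited files hold raw UMI counts per gene and cell barcode, which the authors made with Cell Ranger 6.0.1 from 10x 3′ libraries. The study's methods name GRCm38 and the submitters' processing notes GRCm39, and 32158 of the 32285 feature IDs were in GENCODE M21 (GRCm38), whose coordinates are given. Kept cells had 300 or more genes and a mitochondrial share of no more than 20%. The members and gene lists were chosen with earlier results of these data known. Counts were summed per library and compared by the robust quasi-likelihood test of edgeR 4.0.16, after filterByExpr and TMM scaling. A gene was called when its Benjamini-Hochberg adjusted p over all genes was below 0.05 and its log2 fold change exceeded 0.5 in size. Standard errors were derived from the F statistic. The 9 selection genes were left out of the test. DESeq2 1.42.0 was an alternative. Doublets were scored with scanpy 1.11.5, and the highest-scoring cells were called at a rate that grew with the number of barcodes (8.02%, 6.77%, 11.3% and 7.96% of cells), since the automatic threshold called 0.0108% and 0% in vehicle 1 and PM 2. Named genes were the 8 largest rises and 8 largest falls among called genes of at least 50 mean CPM with 4 of 4 vehicle-PM pairs in 1 direction (leaving out selection, immunoglobulin, T cell receptor, mitochondrial, hemoglobin and ribosomal genes and predicted models), genes the study names for monocytes, up to 4 called members of each list (the most abundant where none was called), up to 5 genes per difference between selections, leading markers and the deacetylases PM targets. Other genes, among them Tnfaip3, Nfkbia, Gbp2 and Irf8, were chosen after their values were seen. The study mentions independent experiments for these treatments, but the labels do not tie a sample or its number to one, so experiment could not be used as a term and p-values measure the spread between these samples. Of the genes this rule names, 1 is not reported here.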

Additional observations from a re-analysis of the deposited data

Results flagged for a closer look

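The interaction test in edgeR called the following genes between classical monocytes and another selection of the same mice, and each difference is on the log2 scale, classical minus other. Nkg7, Ms4a3, Iigp1, Fmnl2, Cd209a, Fcna and Mrc1 had too few UMIs to be tested in classical monocytes alone. They entered the joint fit through the libraries where they were present, the size of their difference depends on the prior count, and no change in classical monocytes is read from them. Against cycling monocytes, the fit gave 8.06 for Nkg7 and 4.03 for Ms4a3. Nkg7, a granule gene of lymphocytes and progenitors, had 0 UMIs with vehicle and 26 with PM in classical monocytes, with 11 of the 21 UMIs of PM 1 in 1 cell, and it was at 93.9, 81.9, 192 and 156 CPM in cycling monocytes. Ms4a3, a progenitor gene, had 1 UMI with vehicle and 23 with PM, and its PM level was 26.5 CPM in PM 1, with 11 of the 23 UMIs in 1 cell, and 0 in PM 2. Rgs1, a G protein regulator, differed by −4.89 and fell from 44.7 and 28.5 CPM to 1.15 and 0 CPM in classical monocytes. Cxcl2 differed by −4.17 and Saa3, serum amyloid A3, by −3.95. Saa3 was at 384 CPM in vehicle 1 and at 19.5, 12.7 and 8.95 CPM in vehicle 2, PM 1 and PM 2, so vehicle 1 stood apart from the other 3 libraries.

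Against MHC class II monocytes, the fit gave −8.44 for Iigp1, an interferon-induced GTPase, with 21 UMIs in vehicle 1, of which 14 in 1 cell, and 0 in the other 3 libraries of classical monocytes, vehicle 2 included. It gave −6.13 for Fmnl2, a formin (14.2, 15.0, 1.15 and 0 CPM in classical and 4.35, 8.43, 26.9 and 48.7 CPM in MHC class II monocytes). Rgs1 differed by −5.24 and Cxcl2 by −3.82. It gave −4.40 for Cd209a, a lectin of monocyte-derived dendritic cells, and in classical monocytes it stood at 45.05 CPM in vehicle 2 and at 2.03 CPM or less elsewhere.

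Against non-classical monocytes, of which each PM library held 14 cells, Hmox1 differed by −2.68 ± 0.38 (SE) and Egr1 by 2.81 ± 0.60. The fit gave −12.69 for Cd209a, −6.55 for Fcna and −5.31 for Mrc1, sizes that rest on libraries at 0. In non-classical monocytes Cd209a was at 159 CPM in PM 1 and at 0 in the other 3 libraries. Fcna (ficolin A) and Mrc1 (the mannose receptor), macrophage genes, were at 119 and 220 CPM and at 139 and 165 CPM in the PM libraries of non-classical monocytes and at most 6.71 and 16.8 CPM with vehicle. Hmox1, heme oxygenase 1, was at 148, 118, 596 and 1045 CPM in non-classical and between 77.1 and 113 CPM in classical monocytes. Egr1, an immediate early factor, was at 584, 394, 59.6 and 18.3 CPM in non-classical and at 518, 299, 114 and 376 CPM in classical monocytes.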

How the results depend on the processing

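Of the genes called in classical monocytes, 49 were higher and 32 lower. DESeq2 gave 8 and 6, leaving out cells with over 2 Ltf, Camp and Ngp UMIs gave 21 and 11, and no filter on low counts gave 75 lower. Selecting after thinning gave 19 lower. Dropping the Csf1r criterion gave 75 and 54, and dropping the criterion on Mmp8, Mmp9 and Cxcr2 gave 159 higher; both were chosen after seeing the data. Leaving out 1 library gave 33 to 83 higher and 25 to 82 lower. RLE scaling kept 47 and 32 of the calls. The causes were not tested.

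Of the differences between selections, without called doublets those against MHC class II monocytes were 3 higher and 9 lower and those against non-classical monocytes 18 higher and 13 lower. Leaving out 1 mouse gave 10 to 17 and 8 to 24 against cycling, 2 to 5 and 6 to 13 against MHC class II, and 2 to 23 and 2 to 8 against non-classical monocytes. The difference in share, PM minus vehicle, was −0.0753 percentage points and became 0.428 after thinning, −0.969 among cells other than granulocytes, 0.337 without the Csf1r criterion and −0.880 without that on Mmp8, Mmp9 and Cxcr2, and ran from −0.340 to 0.189 without 1 library. Cxcl10 (0.45) ranged from −1.62 to 1.12 without 1 library, with −0.13 without vehicle 2 and −1.62 without PM 1, and Lcn2 (−0.13) and Camp (−0.51) reversed after thinning.

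With the replicate number as a block, 40 genes were higher and 30 lower, of which 34 and 22 were shared with the unblocked fit. Of 43 results followed across the settings, 36 stayed the same and 7 were weaker. Calls lost with the block included those of Dusp5, Adam9, Clec4a3, Capg, Camp, Hist1h2ac and Rsad2. The correlation of deviations was 0.0091 over 6861 genes, and the labels do not tie the number to an animal, day or experiment.

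With 2 mice per group and 41 to 130 cells per library, the fold of a gene with few UMIs in a group is known only within wide limits and can rest on 1 cell, and a change in the mix of cells within the selection and a change within each cell cannot be told apart.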

Other observations

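Some called genes belonged to none of the gene lists and were chosen after their values were seen. Ly6a, the stem cell antigen SCA-1, which interferons induce, was at 8.13, 3.003, 61.0 and 35.8 CPM in vehicle 1, vehicle 2, PM 1 and PM 2 (log2 fold change 3.29 ± 0.52, adjusted p = 1.75e-04, edgeR). Cd9, a tetraspanin, was at 4.07, 7.51, 46.0 and 38.8 CPM, and Mgst2, a microsomal glutathione transferase, at 2.03, 4.505, 26.5 and 32.8 CPM. In these genes both PM libraries lay above both vehicle libraries, but all 3 calls were lost without PM 1 and in DESeq2, and that of Mgst2 also without vehicle 1 and without PM 2. Itga1, an integrin subunit that binds collagen, was at 91.5, 64.6, 174 and 200 CPM, and Ltb4r1, the leukotriene B4 receptor, at 61.0, 85.6, 177 and 170 CPM (1.26 ± 0.24, adjusted p = 0.00178, edgeR). Among genes that fell, Ptger4, a prostaglandin E2 receptor, was at 73.2, 79.6, 28.8 and 17.9 CPM, Kmo, a kynurenine enzyme, at 46.8, 51.1, 10.4 and 2.98 CPM, and Srgn, the granule proteoglycan serglycin, at 531, 378, 239 and 164 CPM (−1.10 ± 0.21, adjusted p = 0.00198, edgeR).

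Capg, an actin-capping protein, was the only call among 22 tested S100, annexin and actin-regulating genes, beside 0.714% of all tested genes called higher. It was at 177, 207, 357 and 290 CPM (0.79 ± 0.19, adjusted p = 0.0260, edgeR), and the call was lost without vehicle 1 and without PM 1. Fabp5, a fatty acid-binding protein, was the only call among 21 lipid and cholesterol genes, beside 0.714% of all tested genes called higher. It was at 28.5, 45.05, 77.1 and 122 CPM, and its call was lost without vehicle 1 and without PM 2. Ebf1, a B cell factor, had 24 and 14 UMIs with vehicle and 1 and 0 with PM, and in each vehicle library all of them were in 1 cell. Its call was lost without called doublets and without vehicle 1.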
